A study of Xenopus laevis with 6 samples.

Results

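The genes described here encode the planar cell polarity core (vangl1, vangl2, prickle1, prickle2, celsr1, celsr2 and dvl2) and the associated receptors ror1, ror2 and ptk7. They were found by symbol, with the ending .L or .S removed, among the 42549 genes of the deposited table. Of 20 member names, 16 had a row, whereas celsr2.S, ror1.L, ror1.S and dvl2.S were not analysed here. Xenopus laevis is an allotetraploid frog, and its duplicated genes (homeologs) carry the endings .L and .S after the long and short chromosomes.

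The study stretched wild-type neuroectoderm explants, joined in pairs by their inner faces and pinned to agarose. Its samples are listed at NF stage 11.5, the upper end of the range of stages at which the paper cut explants. Poly(A) RNA was sequenced from 3 control samples (pinned, not stretched) and 3 samples stretched within 3 h. The explants of both groups were lysed after 3 h. The measurement analysed here is the authors' average log2 CPM, which is a single value per gene over the samples of their fit, on the log2 scale of CPM (read counts scaled to a common library total). Control and stretched explants are joined in this value, so it gives the read level of each gene in the explants as a whole, and a change upon stretching was not analysed here. No error or number of replicates can be attached to a value of this kind, and for the depth of the samples the methods state only a minimum of reads generated, not the reads counted in each.

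Planar cell polarity is the alignment of cells within the plane of a tissue. Its core proteins gather at opposite sides of each cell, with Vangl and Prickle on the one side and Frizzled and Dishevelled on the other, while the atypical cadherin Celsr bridges neighbouring cells. In the frog gastrula and neurula the pathway is needed for convergent extension, in which cells intercalate mediolaterally and lengthen the axis, and for closure of the neural tube. Ror2 and Ptk7 are single-pass receptors of the same noncanonical Wnt branch.

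All 16 rows stood above the median of the 30073 genes with a level above the lowest value of the table (median log2 CPM 1.62), and 15 of them above the upper quartile (4.40). Their log2 CPM ranged from 3.80 to 8.31, with a median of 5.96, so that each was counted in these explants by a wide margin over the lowest value of -2.08, at which 12476 genes stand. Together they took 0.158% of the reads of the table. CPM is not divided by transcript length, and long transcripts collect more reads. Levels of different genes are therefore given as shares of reads and ranks among reads, and they do not order the genes by the number of their transcripts.

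**Figure D1:**
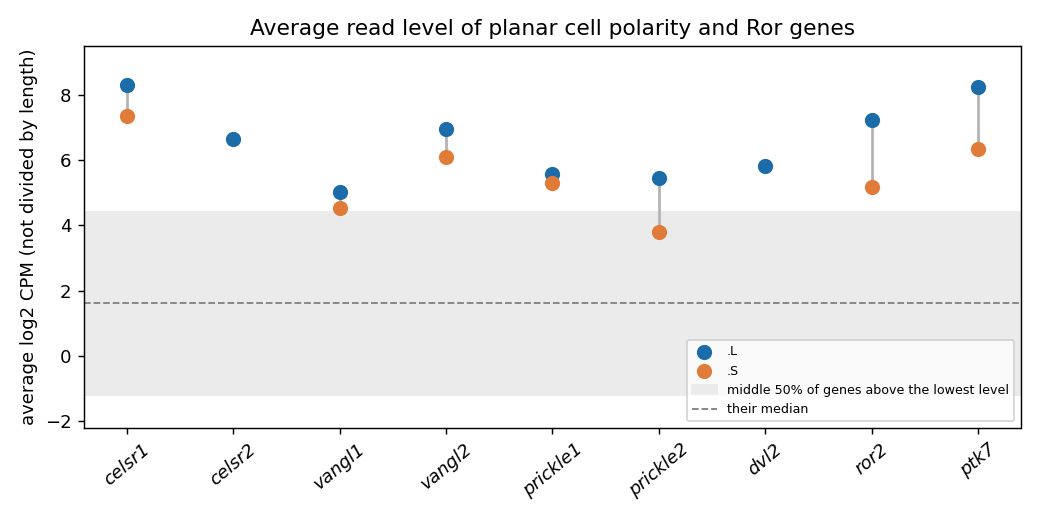
Average log2 CPM (vertical axis, not divided by length) of the .L (blue) and .S (orange) rows of each gene. The grey band spans the 25th to 75th percentile of the genes above the lowest value and the dashed line marks their median of 1.62. All 16 points lie above that line, and prickle2.S (3.80) is the point inside the band.

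The celsr genes encode large seven-pass cadherins, the vertebrate counterparts of fly Flamingo, which hold the complexes of adjoining cells together. celsr1.L had the highest read level of the members, with a log2 CPM of 8.31 (317 CPM), at percentile 98.5 of the genes above the lowest value. celsr1.S stood at 7.36 (164 CPM), and celsr2.L at 6.65 (100.4 CPM). The rows of celsr1 gave 82.8% of the reads of celsr1 and celsr2. Since celsr2.S was not analysed here, the share of celsr2 may be understated.

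The vangl genes encode membrane proteins that recruit Prickle and are counterparts of fly Strabismus. vangl2.L was at a log2 CPM of 6.96 (125 CPM) and vangl2.S at 6.09 (68.1 CPM). For vangl1 the log2 CPM was 5.02 for the .L row (32.4 CPM) and 4.53 for the .S row (23.1 CPM). Both rows of vangl2 were thus above both rows of vangl1, and vangl2 took 77.6% of the reads of this family.

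The prickle genes encode cytoplasmic LIM domain proteins that bind Vangl and antagonise Dishevelled. prickle1.L and prickle1.S had a log2 CPM of 5.58 and 5.30 (47.8 and 39.4 CPM). prickle2.L was close to them at 5.44 (43.5 CPM), whereas prickle2.S was the lowest row of all members at 3.80 (13.9 CPM), at percentile 69.3 of the genes above the lowest value. Between prickle1 and prickle2 the reads were divided more evenly than between vangl1 and vangl2 or between the analysed rows of celsr1 and celsr2. Of these reads, 60.3% came from prickle1 and 39.7% from prickle2, with prickle3 and prickle4 not counted. dvl2.L, which encodes a cytoplasmic Dishevelled protein acting downstream of Frizzled, had a log2 CPM of 5.82 (56.6 CPM).

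ptk7 encodes a receptor whose kinase domain has no catalytic activity and which takes part in neural tube closure. ptk7.L had the second highest read level of the members, with a log2 CPM of 8.23 (301 CPM), and ptk7.S stood at 6.34 (81.0 CPM). ror2 encodes a receptor tyrosine kinase-like protein that binds Wnt5a. ror2.L had a log2 CPM of 7.23 (151 CPM) and ror2.S of 5.17 (36.1 CPM). Summed over both homeologs, ptk7 took 382 CPM and ror2 took 187 CPM, against 482 CPM for celsr1 and 193 CPM for vangl2.

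For 7 genes both homeologs had a row, and in all 7 the .L row was above the .S row. Over the 6666 homeolog pairs of the table with both rows above the lowest value, .L was higher in 56.3%. The difference was at least 2-fold, which is 1 on the log2 scale, in 3 of the 7 pairs, against 52.0% of all pairs. These values describe a small number of pairs, and no test was made of them. Short reads from stretches that .L and .S have in common may have been assigned to the wrong copy, and the lengths of the copies were not used, which makes each of these divisions approximate.

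The size of the difference varied between pairs. ror2 had the largest difference, with .L above .S by 2.06 on the log2 scale (4.17-fold), so that 80.7% of the reads of the pair came from ror2.L. It was followed by ptk7, with 1.89 (3.71-fold, 78.8% from .L), and by prickle2, with 1.65 (3.14-fold, 75.8% from .L). In the celsr1 pair the difference was 0.95 and in the vangl2 pair 0.87, which leaves both below 2-fold (1.93 and 1.83). vangl1 differed by 0.49 (1.40-fold) and prickle1 by 0.28 (1.21-fold, 54.8% from .L). Of all pairs of the table, 74.4% had a smaller absolute difference than ror2 and 16.6% a smaller one than prickle1. The median absolute difference was 0.95 over the 7 pairs and 1.06 over all pairs.

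**Figure D2:**
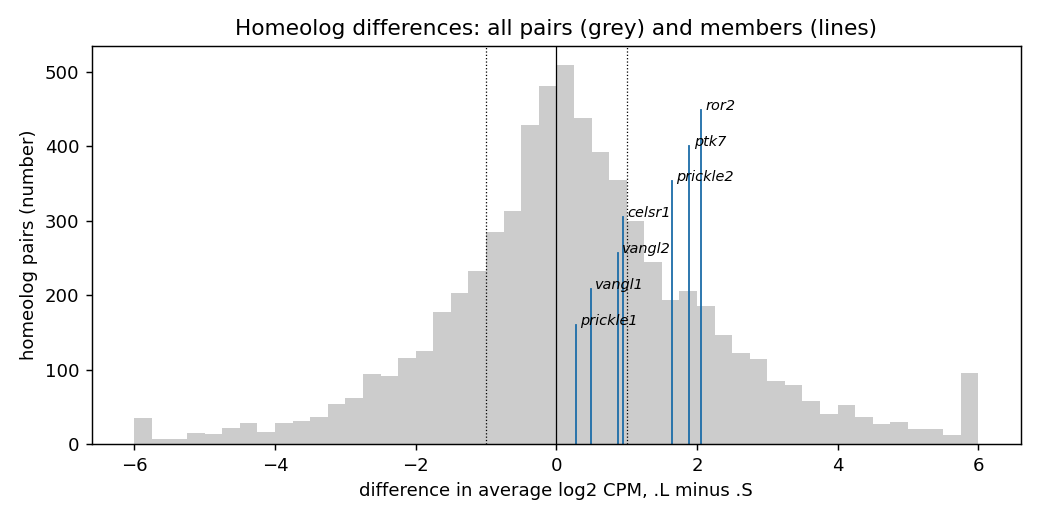
Difference in average log2 CPM between homeologs, .L minus .S (horizontal axis), for the 6666 pairs of the table (grey bars, number of pairs per bin). The outermost bars also hold the 111 pairs beyond 6 on either side. Blue lines mark the 7 member pairs, their heights serve only to separate the names, and dotted lines mark a difference of 1 in either direction. All 7 lines lie to the right of 0, with prickle2, ptk7 and ror2 beyond the dotted line.

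The rest of the pathway was taken from 6 lists with 35 symbols, of which 33 had at least 1 row. Of their 53 rows, 44 were above the median of the genes above the lowest value, and 1 (wnt11.L) stood at the lowest value. The median log2 CPM of these rows was 4.56, against 5.96 for the members. By list, the median was near that of the members for the receptors (5.81) and the effectors (5.72). In the other lists it was lower, from -0.54 (ligands) to 4.15 (regulators).

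The ligands fell into high and low rows. The ligand gene wnt11b, required for convergent extension in the frog, had a log2 CPM of 5.96 in its .L row. Another ligand gene of the same branch, wnt5b, had 5.52 (wnt5b.S) and 4.53 (wnt5b.L). wnt5a.S was at 0.34, and the rows of wnt4 and wnt11 were between -2.08 and -1.41. The rows of wnt4 and wnt11 are thus near the lowest value of the table, where a level rests on few reads.

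All 10 rows of the receptor list were above the median. fzd7.L, a Frizzled that acts in convergent extension, had a log2 CPM of 8.34, beside 8.31 for celsr1.L. The glypican gpc4.L, a Wnt co-receptor, was at 7.71, and the Wnt receptor gene ryk was at 7.28 (ryk.L) and 6.76 (ryk.S). The frizzled genes fzd3 and fzd6 had rows between 3.54 and 5.84.

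Among paralogs of the members, dvl3.L was at a log2 CPM of 5.87, next to dvl2.L at 5.82. dvl1.L was at -1.76, so that reads of the dvl rows analysed here came mostly from dvl2 and dvl3. prickle4.S and prickle3.L were at 2.85 each, below every prickle1 and prickle2 row. celsr3 was not analysed here.

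The effectors carry the signal to the cytoskeleton, and 13 of their 14 rows were above the median. The highest row was that of the small GTPase gene cdc42.L, with a log2 CPM of 8.22, and cdc42.S was at 7.50. The formin gene daam1, whose product binds Dishevelled, was at 6.66 for daam1.L and 2.66 for daam1.S, while daam2.S was at -1.76. Of the regulators, the highest were scrib.L (6.67), a scaffold that interacts with Vangl2, and dact1.L (6.27), which binds Dishevelled, followed by the ubiquitin ligase smurf2.S (5.26) and the kinase mink1.L (4.97). intu.S, fuz.L and wdpcp.L, which encode the effectors known as CPLANE that act in cilium formation, were lower, between 2.11 and 2.92.

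**Figure D3:**
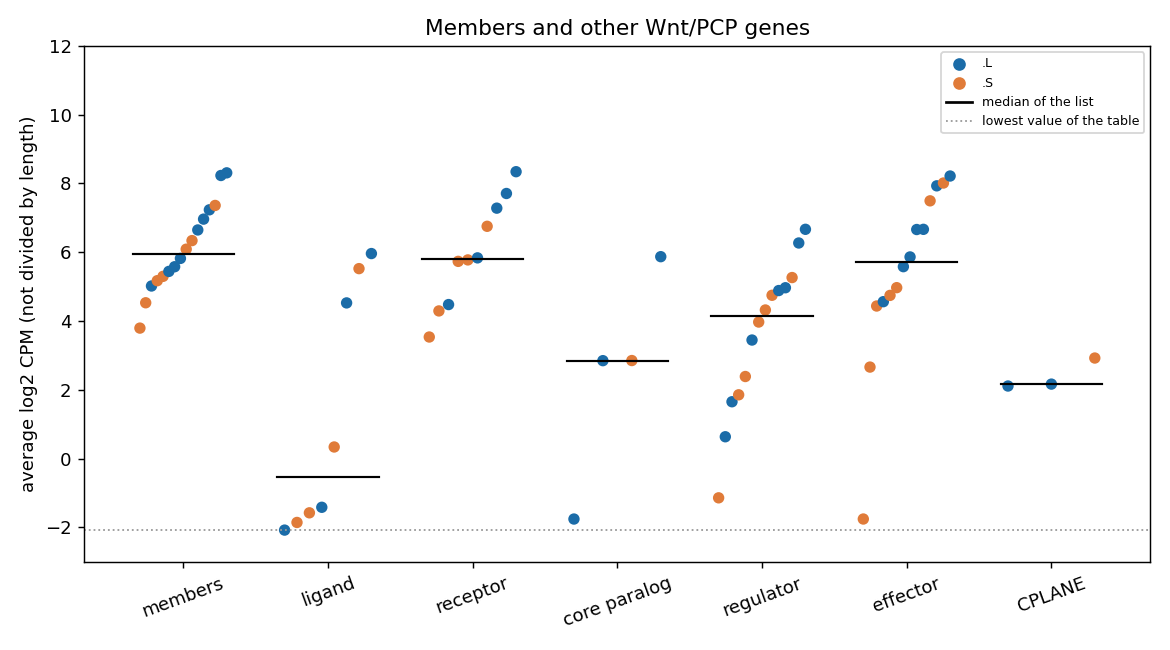
Average log2 CPM (vertical axis, not divided by length) of the 16 member rows and of the rows of the 6 other lists, each point a gene row (.L blue, .S orange) and each black line the median of its list. The member median is 5.96. Of the ligands, wnt11b.L and both wnt5b rows stand apart from the rest, and wnt11.L lies on the dotted line of the lowest value.

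Of the 19 homeolog pairs in these lists, 15 had .L above .S and 9 differed at least 2-fold, beside the 56.3% and 52.0% of all pairs. The largest difference was that of daam1, with .L above .S by 4.0 on the log2 scale, followed by scrib (2.70), fzd7 (2.61) and fzd6 (2.30). wnt5b was the pair with the largest difference the other way (-0.997). The direction shared by the 7 member pairs was therefore found in most, though not all, of the other pathway pairs.

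The labelled tissue was checked by its markers. All 13 rows of neural ectoderm genes were above the median, from zic2.L (log2 CPM 4.49) to sox3.S (8.07). Epidermal genes were also high, with 9 of 10 rows above the median and grhl3.L at 9.23. The exception was tp63.L at -1.41, and tp63.S, at 3.11, was the next lowest row of this list. The median log2 CPM of the epidermal rows was 8.11, higher than the 6.13 of the neural rows, with no division by length. The markers therefore do not single out neural ectoderm. Among mesodermal genes tbxt.S was at 6.79 and tbxt.L at 5.84, while the rows of msgn1, myf5 and tbx6 were between -0.34 and 1.21. In the endoderm list 2 of 8 rows were above the median, foxa4.L (6.12) and foxa4.S (5.45), which also mark dorsal midline cells. sox17a.L and sox17a.S were at 0.47 and 0.55, and the rows of gata4 and gata6 were between -0.76 and 1.26. The organizer and notochord rows (gsc and shh) ranged from 0.32 to 2.08. The ciliary genes differed, with foxj1 at 4.20 (foxj1.S) and 3.71 (foxj1.L), and tekt2 at 0.01 (tekt2.S) and -1.76 (tekt2.L). No row was found under the names noto and chrd (organizer and notochord list), myod1 (mesodermal list) or sox17b (endoderm list). The values thus include RNA of neural and of epidermal marker genes, and also of tbxt and foxa4. In such bulk samples the level of a planar cell polarity gene cannot be assigned to neural, epidermal, mesodermal or dorsal midline cells. A low level in bulk RNA can come from few cells or from little RNA per cell, which cannot be told apart.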

How the data were processed

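Poly(A) RNA of 3 control and 3 stretched samples was sequenced. The authors deposited 1 table with 42549 genes. The average log2 CPM in the table that the authors deposited is a value per gene over the samples of their fit. Its 4 other columns (fold change, F, p-value and FDR) are the authors' own comparison of stretched with control explants and were not used. Since no values per sample were analysed here, the planned test of stretched against control was not made. For the processing by the authors, the submitters' notes list edgeR, DESeq, HTSeq and TopHat2, whereas the paper names STAR and DESeq2. The genome build is not given in the sources used here. That the logarithm has base 2 was checked by the sum of the values on the linear scale, which is 1.01e+06 over all genes.

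Levels were planned per coding length, but lengths of coding sequences or transcripts were not used here, so CPM without length was taken in their place. Proteins, planned as well, were not analysed here. Members and lists were chosen with earlier results of these data known. All members with a row were named, and from each list up to 4 rows with the highest level, except for effector rows among these that are not reported here, and other rows were picked for naming with their values in view. Homeolog pairs were symbols with a single .L and a single .S row, both above the lowest value, and a pair was called at a difference of 1 on the log2 scale. All 16 member symbols matched RefSeq symbols of Xenopus laevis v10.1, used for names only. The computation of pair differences was tested on simulated data. Alternatives were other reference genes, summed homeologs, a filter on low values, another threshold and subtraction of the lowest value. Python 3.11.15, pandas 2.3.3, numpy 2.4.6 and matplotlib 3.10.9 were used.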

Additional observations from a re-analysis of the deposited data

How the results depend on the processing

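No paired analysis was possible because the value analysed here is a single average over the samples, and for the same reason no replicate could be left out and no count model fitted. Alternatives that divide levels by coding length were not run, so none of the statements on levels of different genes has been checked for length. All 16 member rows were above the median also with only genes of a log2 CPM above 0 as the reference. That median is higher, and the lowest member row, prickle2.S (3.80), was only slightly above it. With all genes as the reference the median can only be lower, so that this alternative could not change the count of 16. With .L and .S summed, 9 of 9 symbols were above the median, the number being smaller because symbols and not rows are counted. At a threshold of 1.5 on the log2 scale 3 of the 7 pairs were still called, against 37.3% of all pairs in place of 52.0%, so that the share of the members is below that of all pairs at the one threshold and above it at the other. A filter on low values (both rows above a log2 CPM of 0) removes no member pair and so could change neither the 3 pairs called nor the 7 with .L above .S, while over all pairs it gave 50.1% called and 56.1% with .L higher. Subtracting the lowest value (0.237 CPM) left the shares of vangl2 (77.7%), prickle1 (60.4%) and celsr1 (82.8%) within 5 percentage points. The lowest member row is at 13.9 CPM, so that this alternative could hardly move the shares. The number of reads counted in each sample was not analysed here, and depth limits the lowest levels most.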
